A study of Mus musculus with 2 samples.

Results

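Lipoprotein lipase and 5 genes that act with it, Lpl, Angptl8, Angptl4, Gpihbp1, Lmf1 and Vldlr, were followed through the nuclei of mouse mesenteric perivascular fat. They are 6 of the 32285 genes counted, and each was found by its symbol in both libraries. The members were picked by name with earlier results of these data known, including the difference of Angptl8 and Angptl4 between the libraries, so their values are descriptions and support no test. In the library labelled Prdm16 cKO, adipocyte-like nuclei had 3.38-fold more Angptl8 and 1.87-fold less Angptl4 than in the flox control library, while the level of Lpl itself differed by 1.08-fold.

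Mesenteric perivascular fat was dissected from 11-week-old mice, snap-frozen and homogenised, and its nuclei were sequenced by droplet single-nucleus RNA sequencing. The flox control library came from mice with floxed Prdm16 alleles (genotype label Prdm16flox). The other library, labelled Prdm16 cKO, came from mice with the same floxed alleles and a Cre recombinase (genotype label "Prdm16flox, AdopiQCre+", in the series text AdipoQCre+). The promoter of adiponectin drives that Cre in adipocytes, and Prdm16 is a transcriptional regulator of brown and beige fat. There was 1 library per genotype and the number of animals in each is not stated, so every difference here is between 2 libraries, with no replicate to check it, and the 95% intervals given throughout cover counting error and nothing else. No agent, diet or feeding state is named in the labels. Mesenteric fat and nuclear RNA are named in each sample's own labels, which were followed here, although the title of the series names total RNA and fat of the thorax and abdomen.

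The control library held 10532 kept nuclei with 92779065 UMIs (unique molecular identifiers, 1 per captured RNA molecule) and the cKO-labelled library 7374 nuclei with 62275986 UMIs, and 24 cell barcodes were shared between them. Adipocyte-like nuclei, named from clusters made without the 6 members, numbered 4285 (40.7%) and 2886 (39.1%). Unnamed cluster 3 passed 3 of 9 adipocyte markers but was too shallow to be named. Its 546 (5.18%) and 980 (13.3%) nuclei are not counted as adipocyte-like. All 9 markers of the adipocyte list were present in the adipocyte-like nuclei of both libraries, at summed levels of 24438 and 23766 CPM (UMIs of a gene scaled to a common total, that of all UMIs of the class). In those nuclei Prdm16 itself was at 16.5 CPM (15.5 to 17.6) in control and 22.5 CPM (21.0 to 24.1) in cKO-labelled tissue. The count of the targeted gene was thus not lower in the library labelled cKO. The sources used here do not give the floxed exon, and counts from the 3' end of a transcript need not cover it, so the genotype labels were not checked by this value.

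Lipoprotein lipase is made by adipocytes and muscle and frees fatty acids from the triglyceride of circulating lipoproteins at the capillary wall. Lmf1 is a chaperone-like protein of the endoplasmic reticulum that the enzyme needs to fold, and Gpihbp1 carries it across capillary endothelial cells and holds it there. Angptl4, induced by fasting in fat, inactivates the enzyme, whereas Angptl8 is induced by feeding and insulin and acts together with other angiopoietin-like proteins. Vldlr is a receptor that binds triglyceride-rich lipoproteins and can take the enzyme up.

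Angptl8 is the member with the largest difference between the libraries, so its proximal promoter is shown with the pattern found in it. Angptl8 (ENSMUSG00000047822) lies on chromosome 9, 21835510 to 21837347, plus strand of GRCm38, wholly within the span of Dock6 on the opposite strand and outside its exons. The 250 bases before its start in RefSeq (GRCm38.p6, plus strand, chr9:21835260-21835509) read as follows, with an AATAAA match, a relative of the TATA box, in capitals.
Angptl8: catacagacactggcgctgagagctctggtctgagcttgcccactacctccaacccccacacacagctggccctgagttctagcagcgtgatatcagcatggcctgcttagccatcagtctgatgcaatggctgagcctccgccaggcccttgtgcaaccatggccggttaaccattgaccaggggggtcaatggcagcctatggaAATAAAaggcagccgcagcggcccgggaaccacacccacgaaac

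The match begins 44 bases before the start. It was present on either strand in 18.1% of 32851 mouse promoters of this length. No letters matching CACGTG (the E-box, found in 6.02% of promoters), CCAAT (33.8%), TATAAA (12.4%) or TCACNCCAC (a sterol-response pattern, 1.05%) were in this window on either strand. Promoters of 3 of the 6 members matched the table by symbol. Neither start of Vldlr nor that of Lmf1 held CACGTG or the sterol-response pattern. Vldlr had CCAAT on the minus strand before its second start. The matches describe letters only and did not overlap one another.

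Angptl8 stood at 17.2 CPM (16.1 to 18.3, 980 UMIs) in control adipocyte-like nuclei and at 58.2 CPM (55.8 to 60.7, 2220 UMIs) in the cKO-labelled ones. On the log2 scale the cKO-labelled level over the control level was 1.76 (1.65 to 1.87), and the intervals of the levels did not overlap. A gene was counted as differing when its levels were at least 1.5-fold apart, among the 15312 genes with at least 50 UMIs in these nuclei over both libraries. By that rule 5.54% of genes were higher and 3.25% lower in the cKO-labelled library, and the median log2 ratio was 0.04. Angptl8 ranked 48th from the top of the 15312. Of the 6 members 1 was past 1.5-fold upward (Angptl8) and 1 downward (Angptl4), and as the members were chosen with this contrast known, nothing is read from that count.

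Reads of Dock6 could have entered the Angptl8 count, since no source used here says whether strand was used in counting. Dock6 was at 12.3 and 19.3 CPM, a log2 ratio of 0.65 (0.50 to 0.80), smaller than that of Angptl8.

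The 4 adipocyte-like clusters differed more in Angptl8 than in Angptl4, Lpl, Lmf1 or Vldlr. Cluster 2, led by the lipid synthesis genes Elovl6 and Acly and the glycogen-targeting gene Ppp1r3b, had the highest level in both libraries, 37.8 and 87.0 CPM. Cluster 1, led by Nnat, Tshr and Npr3, had the lowest, 6.99 and 18.4 CPM. Cluster 0 (Slc1a3, Nrg4) was at 21.1 and 43.1 CPM, and cluster 7 (Nnat, Ccdc152, Smyd1) at 15.2 and 48.5 CPM. Each of the 4 clusters was thus higher in the cKO-labelled library, with log2 ratios of 1.03, 1.40, 1.201 and 1.68 in clusters 0, 1, 2 and 7. In the same clusters 4.74%, 5.34%, 6.01% and 6.32% of genes were at least 1.5-fold higher, and 2.1%, 4.05%, 2.53% and 4.35% at least 1.5-fold lower. Markers of other cell types also differed between the libraries in these clusters. The 5 erythroid markers summed to 6.64 and 200 CPM in cluster 7 and to 5.04 to 8.25 and 9.21 to 12.0 CPM in the other 3. The 6 pancreatic acinar markers summed to 29.2 to 36.9 CPM in the control and 119 to 174 CPM in the cKO-labelled library over the 4 clusters, with none at 0. Their part in the values of the members was not tested.

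The libraries filled those clusters unequally. Cluster 1 took 43.7% of the adipocyte-like nuclei of the control library but 14.3% of those of the cKO-labelled library, while cluster 2 held 16.5% and 40.3%. Cluster 0 held 28.1% and 37.9%, and cluster 7 held 11.6% and 7.55%. With both libraries given the control's share of UMIs per cluster, an alternative added after seeing the data, the log2 ratio of Angptl8 was 1.23 in place of 1.76, and that of Angptl4 was -0.64 in place of -0.90. Clusters were built without the members but with genes that vary with them, and a cluster mostly of 1 library may reflect that library.

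**Figure D1:**
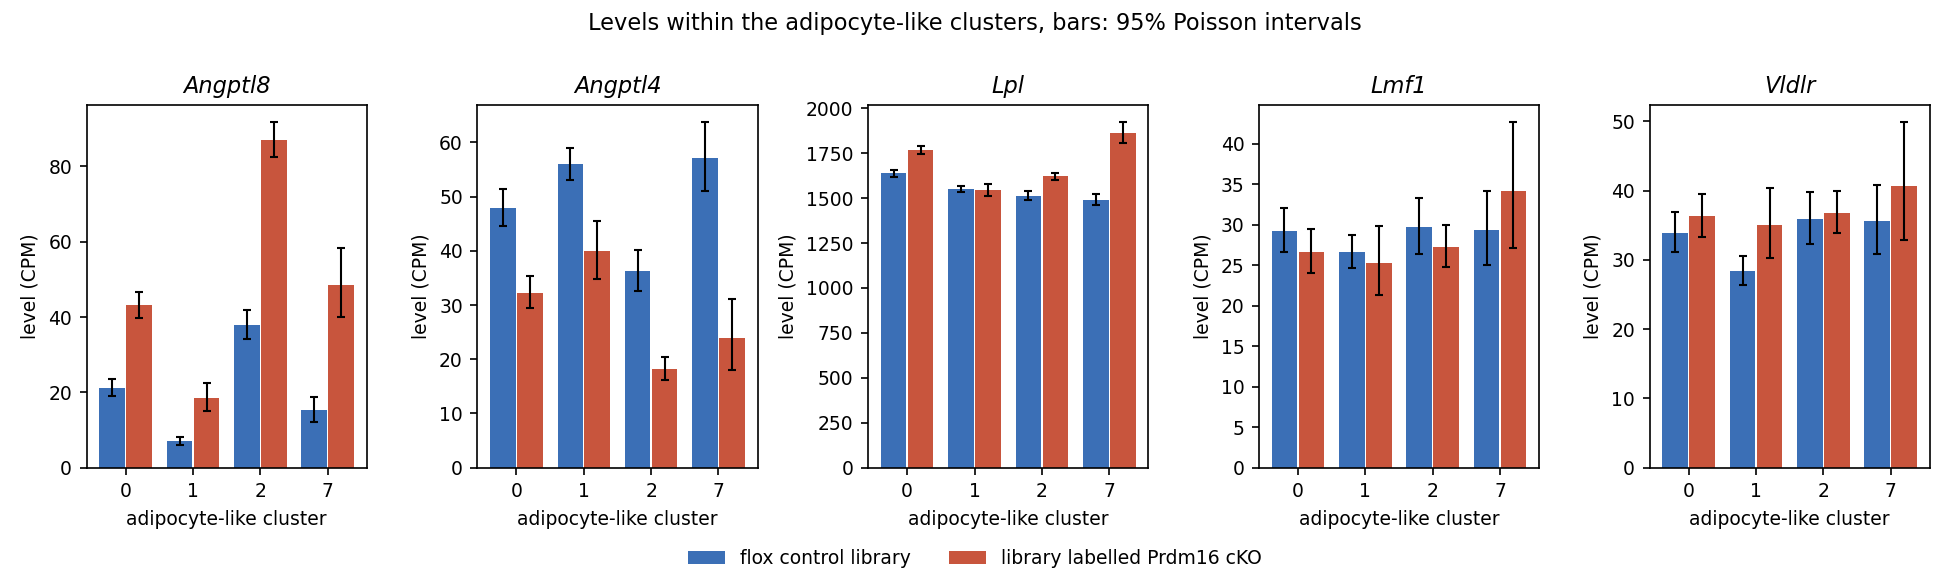
Levels of 5 members (CPM, linear axes from 0, a separate scale for each gene) in the 4 adipocyte-like clusters of the flox control library (blue) and the library labelled Prdm16 cKO (red), with 95% Poisson intervals of counting error. Angptl8 is higher and Angptl4 lower in the cKO-labelled library in each cluster, whereas Lpl lies between 1492 and 1864 CPM throughout.

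Angptl4 (ENSMUSG00000002289, chromosome 17, 33773750 to 33781830, minus strand) had the opposite order of libraries. It was at 50.4 CPM (48.5 to 52.2, 2867 UMIs) in control and 27.0 CPM (25.3 to 28.7, 1028 UMIs) in cKO-labelled adipocyte-like nuclei, a log2 ratio of -0.90 (-1.01 to -0.80). It was 171st from the bottom of the 15312 genes. In control nuclei clusters 7 and 1 were highest, at 57.1 and 56.0 CPM, and cluster 2 was lowest, at 36.2 CPM. In cKO-labelled nuclei cluster 1 was at 39.95, cluster 0 at 32.3, cluster 7 at 23.8 and cluster 2 at 18.2 CPM. The order of the clusters was thus close to the reverse of that of Angptl8, with cluster 2 lowest for Angptl4 and highest for Angptl8 in both libraries. Within clusters 0, 1, 2 and 7 the log2 ratios were -0.57, -0.49, -0.996 and -1.26.

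The balance of the fed and fasted signals was given as the share of Angptl8 among all UMIs of Angptl8 and Angptl4. The counts are not scaled for gene length, so the share serves to compare nuclei and not the genes. It was 25.5% (24.1 to 26.9%, exact Clopper-Pearson) in control and 68.3% (66.7 to 69.9%) in cKO-labelled adipocyte-like nuclei. In the control it ran from 11.1% in cluster 1 to 51.1% in cluster 2, and among cKO-labelled nuclei from 31.6% in cluster 1 to 82.7% in cluster 2. Cluster 1 was lowest and cluster 2 highest in each library.

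The share was also computed in the 8 other compared classes. T cell-like nuclei, which are not a known source of either gene, had a share of 24.5% (13.8 to 38.3%) in control and 67.1% (55.1 to 77.7%) in cKO-labelled tissue, and macrophage-like nuclei had 27.3% and 67.5%. Progenitor or fibroblast-like nuclei had 22.2% (16.5 to 28.7%) and 53.5% (46.8 to 60.1%), and the second interval lies below that of the adipocyte-like nuclei. The cKO-labelled shares of the remaining classes were 67.7% in B cell-like, 65.7% in vascular endothelial-like, 58.4% in mesothelial-like, 56.4% in dendritic-like and 50% (31.3 to 68.7%) in lymphatic endothelial-like nuclei, and the intervals of these 5 overlapped that of the adipocyte-like nuclei. Unnamed cluster 3, a shallow cluster with 3 of 9 adipocyte markers passing and medians of 2476 and 2134 UMIs per nucleus, had Angptl8 at 21.3 and 70.9 CPM and Angptl4 at 57.6 and 30.1 CPM.

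**Figure D2:**
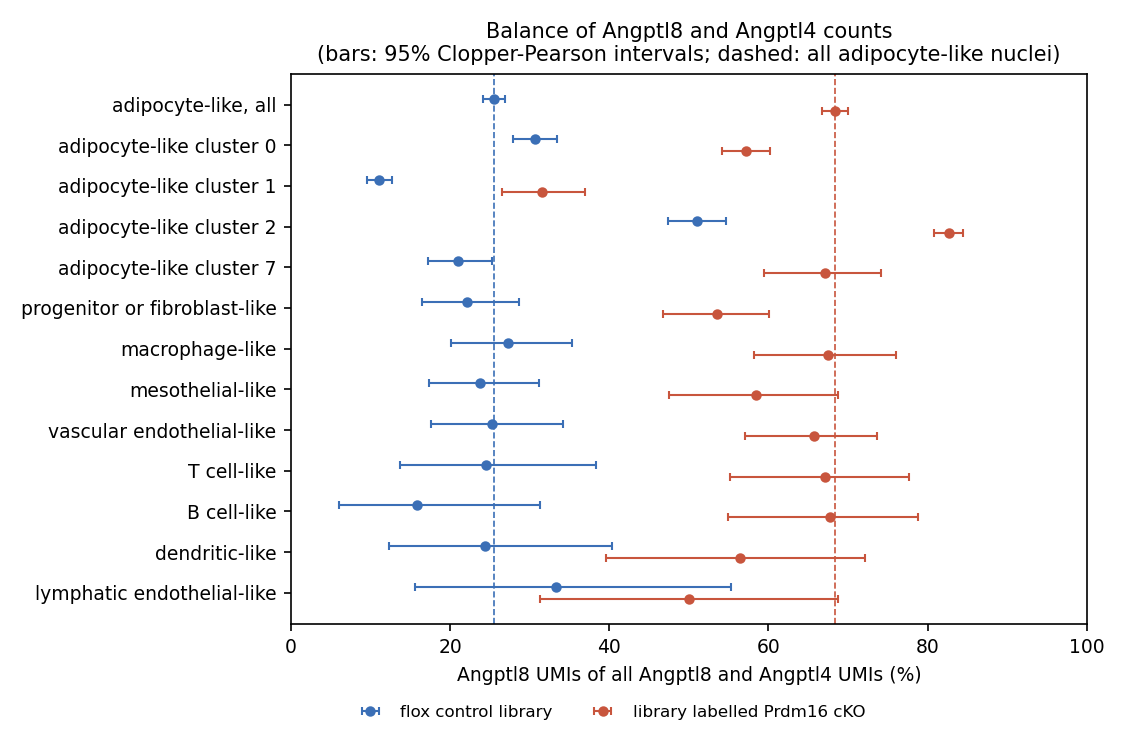
Share of Angptl8 among all Angptl8 and Angptl4 UMIs (percent) by class or adipocyte-like cluster, with 95% Clopper-Pearson intervals. Dashed lines mark all adipocyte-like nuclei of the flox control library (25.5%, blue) and of the library labelled Prdm16 cKO (68.3%, red), and the 8 other classes lie between 15.8 and 33.3% in the control and between 50 and 67.7% in the cKO-labelled library.

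RNA released from adipocytes can enter droplets that hold other nuclei. Its amount was gauged from 4 adipocyte markers (Adipoq, Plin1, Plin4, Cidec), whose summed level in the 8 other compared classes was 18.6 to 35.0% of the adipocyte-like level in control tissue, and 23.5 to 52.0% of it in cKO-labelled tissue. Multiplying the adipocyte level of a member by that share gives the level that adipocyte RNA alone would put into the class. T and B cell-like nuclei held 1.14 and 0.83 times that level of Angptl8 in the control, and 1.26 and 1.15 times in the cKO-labelled library. For Angptl4 they held 1.19 and 1.51 times, then 1.33 and 1.18 times. No cut-off was set for these multiples. Levels near 1 times are not read here as expression, and their source was not tested.

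Progenitor or fibroblast-like nuclei exceeded the adipocyte RNA level of Angptl4 by more than macrophage-, mesothelial- or vascular endothelial-like nuclei (1.61 to 1.86 times). Control progenitor nuclei held 21.0 CPM (151 UMIs, 2.24 times the adipocyte RNA level) and cKO-labelled ones 19.4 CPM (106 UMIs, 3.05 times), with a log2 ratio of -0.12 (-0.49 to 0.25). Lymphatic endothelial-like nuclei held 1.34 and 3.39 times the adipocyte RNA level, on 16 and 15 UMIs. The interval of the progenitor ratio lies above the one of adipocyte-like nuclei. For Angptl8 the progenitor or fibroblast-like nuclei were at 5.99 and 22.3 CPM, 1.87 and 1.63 times the adipocyte RNA level.

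Whether the 2 signals occurred in the same nuclei was counted in adipocyte-like nuclei thinned to 5000 UMIs each, which left 4136 control and 2765 cKO-labelled nuclei. An Angptl8 UMI was found in 301 control nuclei (7.28%) and 596 cKO-labelled nuclei (21.6%), and an Angptl4 UMI in 834 (20.2%) and 314 (11.4%). Without thinning, where median depth was 12232 and 11859 UMIs, the shares were 15.4% and 38.8% for Angptl8 and 39.0% and 23.7% for Angptl4. Most nuclei carried neither, 3041 of the control and 1919 of the cKO-labelled nuclei.

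Both UMIs were seen in 40 control nuclei, against 60.7 expected if the genes were detected independently, a ratio of 0.66 (0.47 to 0.90). In the cKO-labelled library 64 nuclei carried both, against 67.7 expected, a ratio of 0.95 (0.73 to 1.21). The control ratio was 0.52 at 3000 UMIs, 0.70 with the expectation summed within clusters and 0.95 without thinning, so the deficit of double-positive nuclei was not seen in unthinned counts. The intervals of the 2 libraries overlap, and nuclei of 1 library are not replicates.

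**Figure D3:**
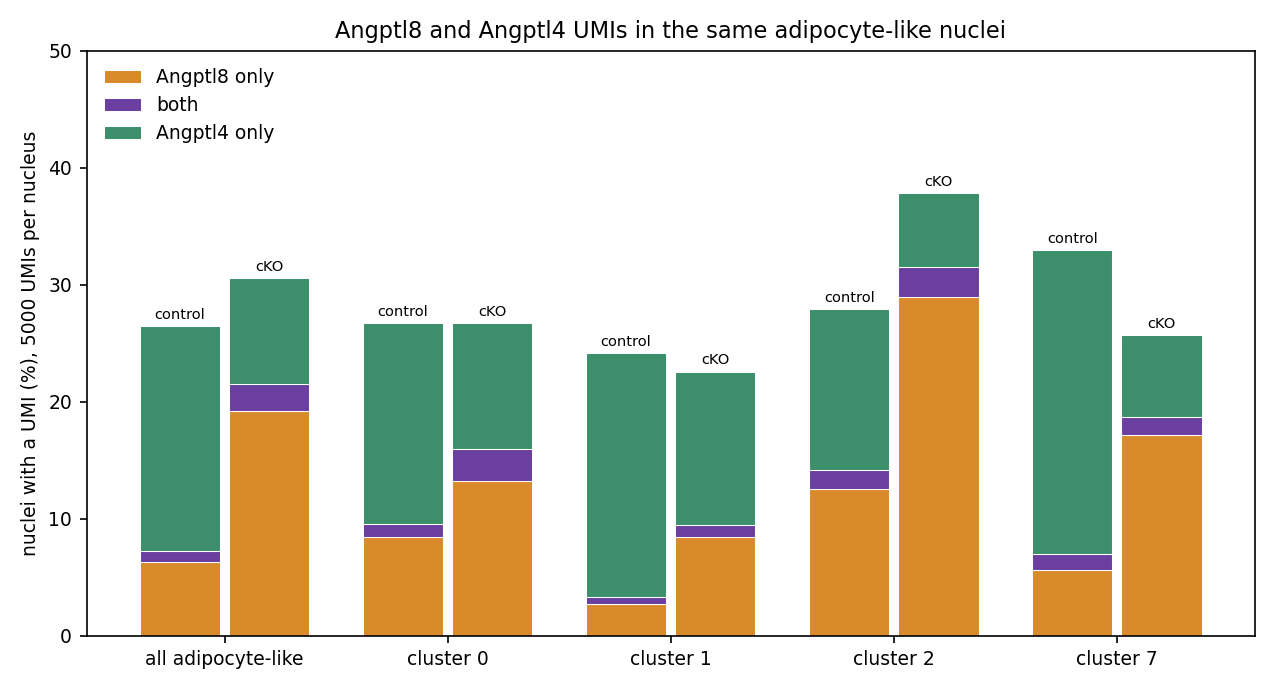
Percent of adipocyte-like nuclei, each thinned to 5000 UMIs, with a UMI of Angptl8 only (orange), of both genes (purple) or of Angptl4 only (green), for all adipocyte-like nuclei and each cluster of both libraries. Nuclei with Angptl8 make up 7.28% of control and 21.6% of cKO-labelled nuclei, and nuclei with both are the thin purple bands (0.967% and 2.31%).

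Nuclei sorted by these UMIs differed in the genes of the fed state. The fed-state list holds 16 genes of fatty acid synthesis, glucose uptake and their regulators, among them Fasn, Acly, Scd1, Slc2a4 and Ppp1r3b. Its summed level was 24629 CPM in control nuclei with Angptl8 only and 14167 CPM in those with Angptl4 only, and 15820 CPM in nuclei with neither. In the cKO-labelled library the same groups were at 35301, 21478 and 24944 CPM. Nuclei with Angptl8 only were thus the highest of these 3 groups in each library, and those with Angptl4 only the lowest. Acaca alone gave 11036 of the 24629 CPM in control nuclei with Angptl8 only, so the sum is weighted to that gene. Nuclei with both UMIs are not given here.

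Ppp1r3b, which directs a phosphatase to glycogen, was at 146 CPM in control nuclei with Angptl8 only and 43.6 CPM in those with Angptl4 only. Its cKO-labelled values were 320 and 139 CPM. The fasting-state list of 16 genes differed less between the 2 groups, at 2339 and 2296 CPM in control nuclei and 2438 and 2108 CPM in cKO-labelled nuclei. Within it Pdk4, the fasting-induced kinase that restrains glucose oxidation, was at 19.2 CPM (12.4 to 28.3) with Angptl8 only and 36.5 CPM (30.8 to 43.0) with Angptl4 only in the control. In the cKO-labelled library the Pdk4 intervals overlapped, at 20.7 and 24.8 CPM. Other genes of the list ran the opposite way in the control, with intervals that did not overlap. Fkbp5, a glucocorticoid-induced chaperone gene, was at 336 CPM with Angptl8 only and 156 CPM with Angptl4 only, the clock gene Per1 at 50.6 and 25.4 CPM, and the lipid droplet gene Plin2 at 192 and 127 CPM. Cluster membership moves with these groups: 33.3% of control nuclei with Angptl8 only lay in cluster 2, and its part in these values was not tested.

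Lpl (ENSMUSG00000015568, chromosome 8, 68880491 to 68907448, plus strand) was detected in nearly every adipocyte-like nucleus (99.7% in control, 99.6% in cKO-labelled tissue), with medians of 16 and 17 UMIs per nucleus. Its level was 1562 CPM (88959 UMIs) and 1680 CPM (64043 UMIs), a log2 ratio of 0.10 (0.09 to 0.12). The interval excludes 0 for counting error, and the ratio is close to the 0.04 of the median gene. Clusters 0, 1, 2 and 7 had log2 ratios of 0.11, -0.01, 0.10 and 0.32. The highest level was that of cluster 7 in the cKO-labelled library, 1864 CPM, against 1492 CPM in the control. Between nuclei split by ANGPTL signal, Lpl in the control was lower with Angptl8 only, at 1434 CPM (1370 to 1501), than with Angptl4 only, at 1556 CPM (1517 to 1595). Their cKO-labelled counterparts overlapped, at 1592 CPM (1544 to 1640) and 1586 CPM (1517 to 1658).

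Among the 8 other compared classes Lpl was highest in dendritic-like nuclei of the control, at 845 CPM, and in the cKO-labelled library these nuclei, at 938 CPM, overlapped the T cell-like ones. Dendritic-like nuclei were at 2.32 and 1.41 times the level adipocyte RNA would give. Of the nuclei outside these classes, unnamed cluster 17 had 1334 and 1480 CPM and unnamed cluster 3 had 1296 and 1556 CPM. Both clusters were shallow, cluster 17 with medians of 2700 and 2609 UMIs per nucleus. The small pericyte-like class had 461 and 1037 CPM and the smooth muscle-like class 369 and 1041 CPM. No adipocyte RNA level is given here for these clusters and small classes, so their values are not read as expression. Progenitor or fibroblast-like nuclei were at 441 and 548 CPM, 1.52 and 1.39 times. T cell-like nuclei had 637 and 910 CPM but only 1.16 and 1.05 times the adipocyte RNA level, and B cell-like nuclei 1.17 and 0.80 times. Vascular endothelial-like nuclei were at 498 and 882 CPM, a 1.77-fold difference, while the summed level of the 9 adipocyte markers in them was 6517 and 10148 CPM. In those nuclei Lpl stood at 1.28 and 1.19 times the adipocyte RNA level.

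**Figure D4:**
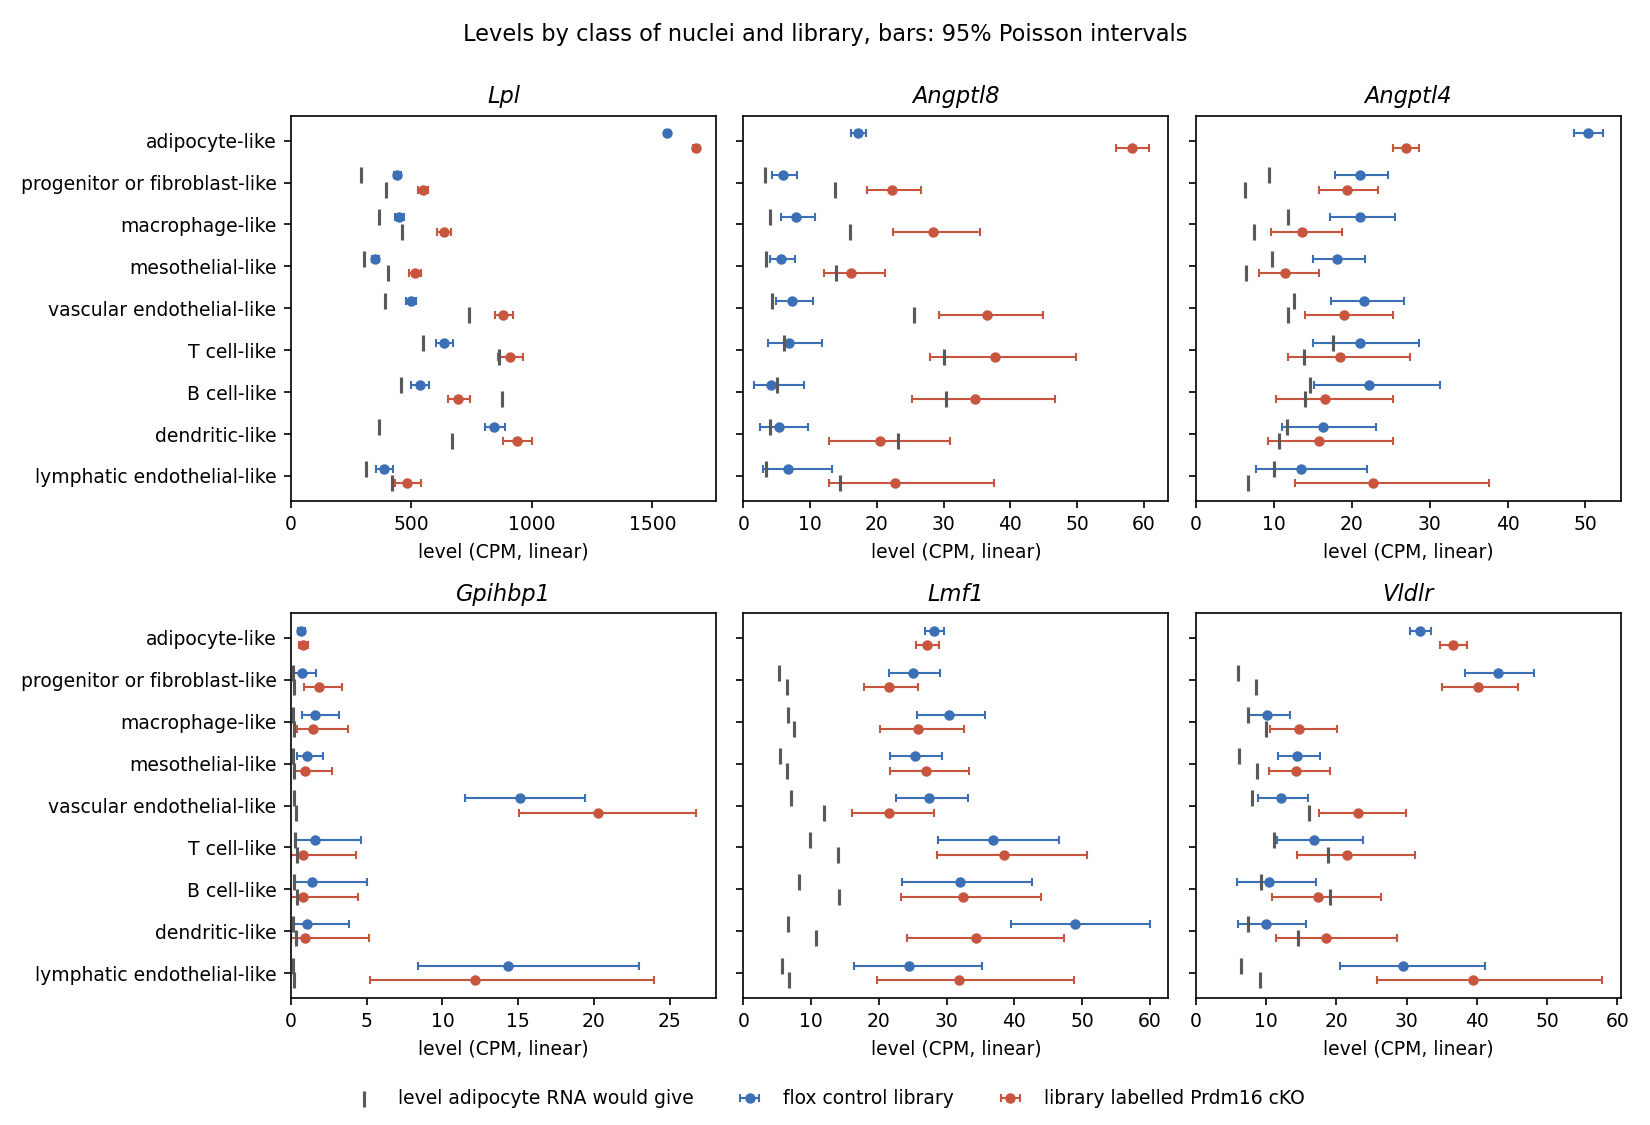
Levels of the 6 members (CPM, linear axes, a separate scale for each gene) in the 9 classes of nuclei compared, for the flox control library (blue) and the library labelled Prdm16 cKO (red), with 95% Poisson intervals. Dark ticks mark the level that adipocyte RNA would give: Angptl8 outside adipocytes lies at 0.83 to 1.96 times them, while Gpihbp1 in endothelial-like nuclei and Vldlr in progenitor or fibroblast-like nuclei (43.0 and 40.2 CPM) lie above them.

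Gpihbp1 (ENSMUSG00000022579, chromosome 15, 75596628 to 75599481, plus strand) was, among the compared classes, nearly limited to endothelial-like nuclei. Vascular endothelial-like nuclei had 15.1 CPM (11.5 to 19.4, 60 UMIs) and 20.3 CPM (15.04 to 26.7, 50 UMIs), a log2 ratio of 0.42 (-0.15 to 0.99) that the counts do not separate from 0. For comparison, 9% of genes in these nuclei were at least 1.5-fold higher in the cKO-labelled library and 4.89% lower. Lymphatic endothelial-like nuclei followed, at 14.4 CPM (17 UMIs) and 12.2 CPM (8 UMIs), overlapping the vascular class. The other 7 classes lay between 0.68 and 1.83 CPM, and adipocyte-like nuclei were at 0.68 CPM (39 UMIs) and 0.81 CPM (31 UMIs). Outside these classes, unnamed cluster 3 had 2.36 CPM (5 UMIs) in the control and 5.35 CPM (16 UMIs) in the cKO-labelled library.

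Within the vascular class nearly all Gpihbp1 UMIs came from cluster 13, whose leading genes also included Cd300lg, Rbp7 and Flt1. This cluster held 53 of the 60 control UMIs and 49 of the 50 cKO-labelled UMIs. Its level was 49.6 CPM (37.2 to 64.9) and 47.8 CPM (35.4 to 63.2), a log2 ratio of -0.05 (-0.64 to 0.54). A UMI was present in 19.4% of its 217 control nuclei and 19.6% of its 163 cKO-labelled nuclei, at medians of 3514 and 3730 UMIs, against 0.91% and 1.07% in the deeper adipocyte-like nuclei, which should lack the gene. Clusters 19 (led by Nrxn3), 20 (led by Vwf, Lhx6) and 21 (led by Gja5, Sox17) held 0 to 4 UMIs each. Cluster 19 passed 5 of 8 vascular markers. At resolution 0.5 the lymphatic endothelial-like cluster had Nrxn3 among its leading genes. It held 362 and 196 nuclei there, against 221 and 111 at resolution 1.0. The vascular class, which contains the 141 and 85 nuclei of cluster 19, may thus include nuclei that group with the lymphatic ones. The log2 ratio was thus 0.42 for the whole class and -0.05 for cluster 13 alone. Among 585 vascular nuclei in the control, 217 lay in cluster 13, and among 376 in the other library, 163 did. Class levels come from summed UMIs, so these counts of nuclei do not give the weight of cluster 13 in the class ratio. Its part in the gap between the ratios was not tested.

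Lmf1 (ENSMUSG00000002279, chromosome 17, 25579085 to 25662826, plus strand) was the most even member. It stood at 28.2 and 27.2 CPM in adipocyte-like nuclei, a log2 ratio of -0.05 (-0.17 to 0.06), and its log2 ratios lay between -0.13 and 0.22 over clusters 0, 1, 2 and 7. Across the 9 classes it ran from 21.5 to 49.0 CPM. The highest value was in control dendritic-like nuclei, at 49.0 CPM (39.5 to 59.99), whose cKO-labelled counterpart was at 34.4 CPM (24.2 to 47.4) with an overlapping interval. Unlike the 2 ANGPTL genes, Lmf1 in T and B cell-like nuclei was 2.29 to 3.88 times the adipocyte RNA level.

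Vldlr (ENSMUSG00000024924, chromosome 19, 27216484 to 27254231, plus strand) was at 32.0 CPM (30.5 to 33.5) and 36.6 CPM (34.7 to 38.6) in adipocyte-like nuclei, a log2 ratio of 0.20 (0.09 to 0.30). The ratio was 0.31 (0.07 to 0.54) in cluster 1 and its interval included 0 in clusters 0, 2 and 7. After thinning each nucleus to 1000 UMIs it was -0.019, so no direction is given. Progenitor or fibroblast-like nuclei were higher, at 43.0 and 40.2 CPM, which was 7.23 and 4.67 times the adipocyte RNA level. Their cluster 14 (Nkain3, Itgbl1) was highest, at 59.3 and 65.5 CPM. Lymphatic endothelial-like nuclei had 29.5 and 39.5 CPM, overlapping the adipocyte level, and macrophage-like nuclei 10.1 and 14.7 CPM, 1.35 and 1.47 times the adipocyte RNA level. Pancreatic acinar-like nuclei, a small class of 90 and 188 nuclei from tissue next to the fat, had 65.7 and 92.3 CPM.

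The other genes of the pathway showed where the 2 ANGPTL genes stood. Over all genes tested 5.54% were past 1.5-fold upward and 3.25% downward. In adipocyte-like nuclei 0 of 8 genes of lipase maturation and trafficking were past 1.5-fold, with a median log2 ratio of -0.11. Sort1, a sorting receptor, was lowest at -0.35 and Sorl1, a related receptor, highest at 0.32. Of 4 tested apolipoproteins of lipase substrates 1 was past 1.5-fold, Apoc4, on 31 and 36 UMIs. Apoe was at 0.52 (36.1 and 51.6 CPM) and Apoc1 at 0.54 (7.15 and 10.4 CPM), while the interval of Apoc2 (0.24, -0.38 to 0.85) included 0. Of 4 other tested angiopoietin-like genes 1 was past 1.5-fold, Angptl6, on 31 and 37 UMIs.

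Of the proprotein convertases, proteases that can cut the lipase and angiopoietin-like proteins, 0 of 4 were past 1.5-fold, from Pcsk5 at -0.38 to Furin at 0.37. Of 4 tested related lipases only Lipg, endothelial lipase, was past it, at 1.01 (2.63 and 5.30 CPM), but its ratio was -0.23 in cluster 0 and -0.69 in cluster 7. The hormone-sensitive lipase gene Lipe was at 0.00 (782 and 781 CPM). Among 8 fatty acid uptake genes the fatty acid carrier Fabp5 was highest, at 0.91 (7.78 and 14.7 CPM), and Fabp4 lowest, at -0.42, while the scavenger receptor Cd36 was at -0.23.

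Of 10 transcription factors known to act on the members, the lipogenic regulators Srebf1 (0.84, 116 and 207 CPM) and Mlxipl (0.70, 756 and 1232 CPM) were past 1.5-fold, and the factors Pparg (0.29) and Nr3c1, the glucocorticoid receptor (0.03), were not. Srebf1 and Mlxipl are also on the fed-state list and are counted again among its genes past 1.5-fold. The fed-state list had 16 of 16 genes higher in the cKO-labelled library, beside 8582 of all 15312 genes tested. Of the 16, 13 were past 1.5-fold upward, beside 5.54% of all genes. The list had a median of 0.85 against 0.04 over all genes tested. Its extremes were Ppp1r3b at 1.58 and Pnpla3 at 0.36. Within clusters 0, 1, 2 and 7 its median was 0.18, 0.31, 0.47 and 0.84, beside 0.03 to 0.05 for all genes. Of its 16 genes, 0, 3, 5 and 12 were past 1.5-fold upward in these clusters, and 5, 3, 1 and 0 were below 0. The shares of all genes past 1.5-fold upward there were 4.74%, 5.34%, 6.01% and 6.32%. Fed-state genes below 0 in cluster 0 were Acaca, Elovl6, Me1, Acss2 and Pnpla3. Elovl6, Ppp1r3b, Acly, Pgm3, Acss2 and Me1 of the list also lead cluster 2, which held 16.5% and 40.3% of these nuclei. The part of that unequal filling in the list values was not tested. The fasting-state list had 7 higher and 8 lower of 15 tested genes and a median of -0.02. Pdk4 (-0.72) and the repressor Bcl6 (-0.86) were past 1.5-fold downward, beside 3.25% of all genes. The Angptl8 ratio (1.76) was above that of each fed-state gene of the list. The Angptl4 ratio (-0.90, -1.01 to -0.80) held Bcl6 inside its interval. In clusters 0 and 1 both genes were lower than Angptl4 (-0.57 and -0.49), with Pdk4 at -0.82 and -0.77 and Bcl6 at -0.83 and -1.36. In clusters 2 and 7 Pdk4 was at -0.999 and -0.41 and Bcl6 at -0.22 and -0.74, against -0.996 and -1.26 for Angptl4. Both lists were chosen with earlier results of these data known.

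**Figure D5:**
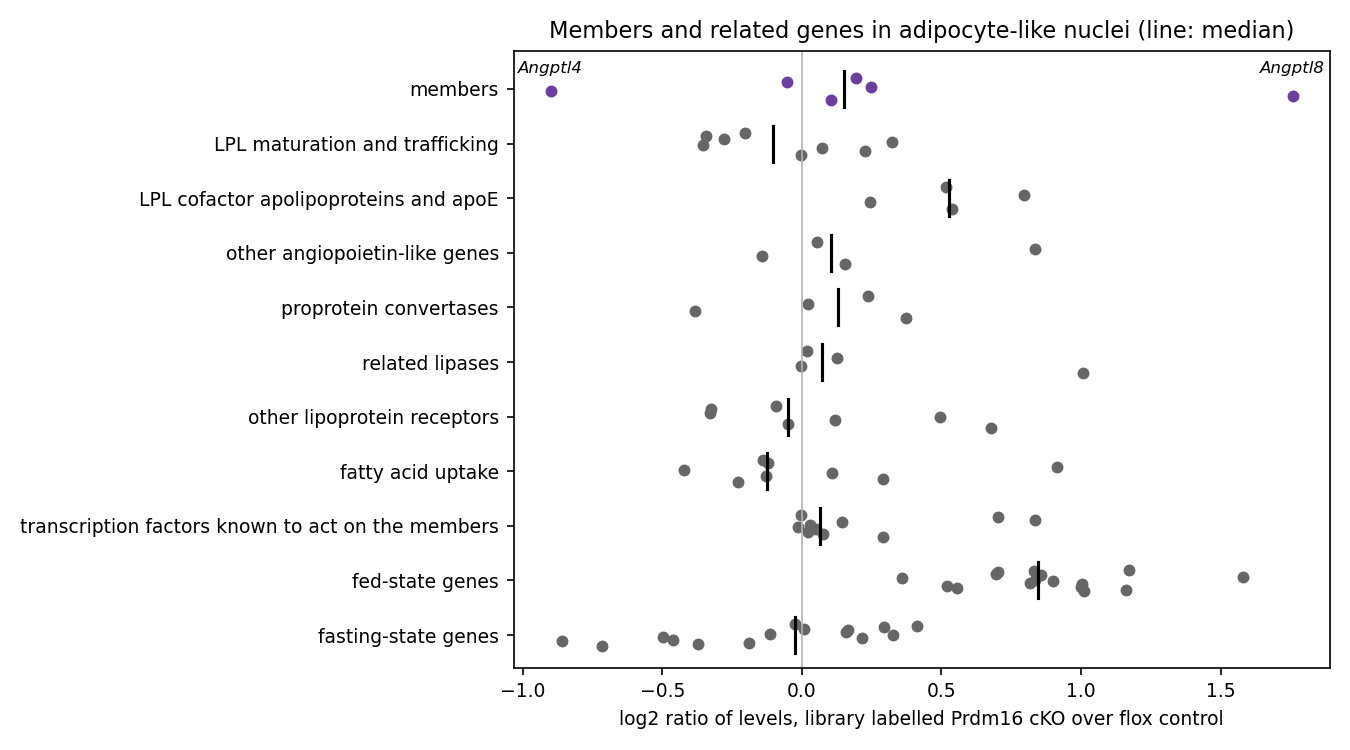
Log2 ratio of levels in adipocyte-like nuclei, library labelled Prdm16 cKO over flox control, for the members (purple) and each related gene list (grey points, 1 per tested gene, with the median as a bar). Angptl8 (1.76) and Angptl4 (-0.90) lie at the ends of the range, and the fed-state genes lie to the right of 0 with a median of 0.85.

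The genes most like each member were found by Pearson's r of log2(CPM + 1) over 18 profiles, 9 classes in each of the 2 libraries, which share depth and adipocyte RNA within a library. For Angptl8 they were the fatty acid synthase gene Fasn (0.93) and the mitochondrial carriers Slc25a10 (0.93) and Slc25a1 (0.93). For Lpl they were Ywhag, Crat and Stat5a (each 0.96), and for Angptl4 5031425E22Rik (0.88), Mttp (0.88) and Nrip1 (0.86). For Gpihbp1 they were the endothelial genes Bmx (0.98) and Egfl7 (0.97) with Pcdh17 (0.97), for Lmf1 Bora (0.88), Atad5 (0.87) and Clk3 (0.85), and for Vldlr Chd9 (0.91), Epb41l2 (0.89) and Lamc1 (0.89). The profiles within a library are not independent, and no p is given.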

How the data were processed

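The deposited matrices hold UMI counts per gene and nucleus, whole numbers and not normalised, made by the authors with Cell Ranger 6.1.2 and the genome build mm10 (per the submitters' processing notes). The sources used here do not name the annotation or say how introns and strand were handled. The libraries held 12060 (control) and 8086 barcodes. Nuclei with at least 500 UMIs, 300 genes and under 5% mitochondrial UMIs were kept, which removed 449 and 217. Scrublet's own threshold marked under 0.5%, so the highest scores were removed at 0.8% per 1000 nuclei (1079 and 495).

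Nuclei were clustered together with scanpy 1.11.5 and leidenalg 0.10.2 (2000 variable genes without the members, 30 components, 20 neighbours, resolution 1.0, 29 clusters). Clusters were named "-like" from fixed marker sets, needing at least 3 markers. A name was withheld where another set had more markers among the 10 leading genes. It was also withheld where no marker was among them and depth was low, as in cluster 3 (0.327 of the library median in the shallower library). The names were rebuilt here, and a difference from the study's own may come from that. UMIs were summed per class and library and scaled to CPM, with exact Poisson, binomial and Clopper-Pearson intervals. Of these only the binomial intervals of ratios were checked on simulated data. Those data were Poisson counts with no added spread between nuclei, so the check does not cover such spread. UMIs are molecules, and intervals cover counting error only. With 1 library per genotype there is no test over samples.

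Named genes were the members, in each list the highest, the lowest and those past 1.5-fold, and the 3 genes most like each member, with a few other list genes chosen after their values were seen. Members and lists were chosen with earlier results of these data known. Alternatives were TMM scaling (edgeR 4.0.16), per-nucleus means, thinning to 1000 UMIs, members among the variable genes, resolution 0.5, no doublet removal, 10% free RNA subtracted, no minimum count, and other settings for pairs of genes. Positions are from GENCODE on GRCm38. Results for some list genes are not reported here.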

Additional observations from a re-analysis of the deposited data

How the results depend on the processing

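No paired analysis was possible because each genotype has 1 library. For the log2 ratios in adipocyte-like nuclei, Angptl8 lay between 1.23 and 1.80 and Angptl4 between -0.94 and -0.64 over 8 alternatives. The least values, 1.23 and -0.64, came with the control's cluster shares in both libraries, an alternative chosen after seeing the data, and the other 7 stayed within the counting interval. Lpl was 0.064 with TMM scaling, which shifts every ratio by -0.04, 0.14 as a mean over nuclei, 0.18 after thinning to 1000 UMIs and 0.081 with the control's cluster shares. Thinning also gave Lmf1 at -0.29 and turned Vldlr to -0.019, and the cause was not tested. Gpihbp1 in vascular endothelial-like nuclei ranged from -0.39 after thinning to 0.83, so its direction is not settled by these counts. Genes past 1.5-fold numbered 848 higher and 498 lower, 1915 and 1698 after thinning, and 2587 and 1927 with no minimum count, where low counts enter. The ratio of nuclei with both ANGPTL genes was 0.95 without thinning in the control, against 0.66, and lay between 0.96 and 1.03 in the cKO-labelled library. Gpihbp1 there rests on 60 and 50 UMIs.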
